A study of Bos taurus with 48 samples.

Results

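The interferon regulatory factors (IRFs) are transcription factors that share a DNA-binding domain and recognise the interferon-stimulated response element in the promoters of antiviral and immune genes. The 8 factors described are IRF1, IRF2, IRF3, IRF4, IRF5, IRF7, IRF8 and IRF9. A probe was taken as theirs when its gene name on the array, or the symbol in the last brackets of its description, was that of a factor, and IRF9, listed under an older symbol, was matched by accession. Of the 8 genes named, 7 had 1 probe each, among 15484 genes with a symbol in the whole series, and the probes of 6 passed the filter on signal. IRF4 did not pass it, and IRF7, which amplifies the production of type I interferon, was not analysed here.

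In ruminants the trophoblast of the elongating conceptus secretes interferon tau, a type I interferon that acts on the endometrium through the interferon receptor and the kinases JAK1 and TYK2. IRF9 then acts within the complex ISGF3, which turns on interferon-stimulated genes, while IRF1 is itself induced by interferon and IRF2 competes with it for the same DNA element. IRF3, IRF5 and IRF7 lie dormant until sensors of nucleic acids activate them, and IRF4 and IRF8 direct the development of lymphoid and myeloid cells. In the ewe, IRF2 in the luminal epithelium is known for restraining interferon-stimulated genes there.

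Endometrium was collected from 22 lactating dairy cows on day 17 of synchronised cycles, when 12 carried an embryo transferred on day 7 and 10 were cyclic. Each cow gave 1 sample of caruncular tissue, the sites to which the placenta attaches, and 1 of intercaruncular tissue, which holds most of the glands. The 44 RNA samples, in Cy5, were read on 2-colour arrays beside a common reference in Cy3 made from all of them, with no exchange of dyes. For 4 cows the caruncular sample was run on another array, giving 48 arrays in all, and its 2 readings were averaged unless stated. Cows are named by P (pregnant) or C (cyclic) and the number in the labels. By the labels, the embryos of 7 pregnant cows were large (over 20 cm and 75 mg) and those of 5 were small (under 20 cm and 40 mg). The labels also call 6 of the pregnant cows fertile and 6 sub-fertile, without saying how this was judged, and 3 fertile and 4 sub-fertile cows had large embryos, against 3 and 2 with small embryos.

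Values are log2 ratios of a sample over the pool, so that 0 is the level of the pool. A change is the mean of pregnant cows less the mean of cyclic cows, given with its standard error (SE). It was tested by limma with adjustment by the method of Benjamini and Hochberg over all 14717 probes past the filter, which asks for 22 or more of the 44 samples to have a Cy5 signal that clears background and reaches 80 units. To pass the threshold, a change had to reach 1.5-fold and an adjusted p below 0.05. Precision is limited by having 10 and 12 cows.

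The probes are shown first, since each factor rests on 1 oligonucleotide of 60 bases, of which the first 30 are printed from the 5′ end.
IRF9: cccaaccctaaaatctagcactttatattt
IRF1: gcgccttggtgtgatttaaaattggaagta
IRF3: ggcaggtagaaggtcttcttcccatccctg
IRF5: tctggcagctacctcccttgagaaactaag
IRF8: ttcagatgatgaaaacttccctcttgggcc

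Over their 60 bases, no pair of these 5 probes shared a run of more than 9 bases on either strand. The share of G and C was 30% in the IRF9 probe, 43.3% in the IRF1 probe, 45.0% in those of IRF5 and IRF8 and 55.0% in the IRF3 probe. The array lists the IRF9 probe under ISGF3G, an older symbol, and it was matched to IRF9 through its accession in the bovine RefSeq gene table. The table with the probe sequences labels it RNF31 while describing it as ISGF3G, and the probe was not aligned to a genome. In the gene table IRF9 lies between REC8 and RNF31. The probe for RNF31, A_73_119830, had a change of 0.45 (SE 0.05, adjusted p = 7.13e-07) in caruncular and 0.53 (SE 0.09, adjusted p = 0.000198) in intercaruncular tissue, both under 1.5-fold and far below the values of the IRF9 probe given next.

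IRF9, the DNA-binding subunit of ISGF3, was the factor that changed most. In caruncular tissue its log2 ratio had a lowest value of -1.94, a median of -1.56 and a highest value of -1.39 in the 10 cyclic cows, against -0.09, 0.98 and 1.42 in the 12 pregnant cows. In intercaruncular tissue the same values were -2.02, -1.28 and -1.08 in cyclic and 0.09, 0.78 and 1.11 in pregnant cows. In both tissues every pregnant cow lay above every cyclic cow, and the gap between the groups was wider than the spread within the cyclic group. IRF9 rose by 2.49 in caruncular tissue (SE 0.15, 5.63-fold, adjusted p = 5.58e-11) and by 2.00 in intercaruncular tissue (SE 0.13, 4.01-fold, adjusted p = 1.59e-10). By p it ranked 15 of 14717 probes in the former and 11 of 14715 in the latter. These are bulk tissues, in which more cells of a type and more RNA per cell cannot be told apart. The 2 lowest pregnant cows in caruncular tissue were P977 (-0.09) and P3807 (0.30), which are the 2 sub-fertile cows with small embryos. In intercaruncular tissue the lowest was P9246 (0.09), fertile with a small embryo, then P977 (0.11).

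**Figure D1:**
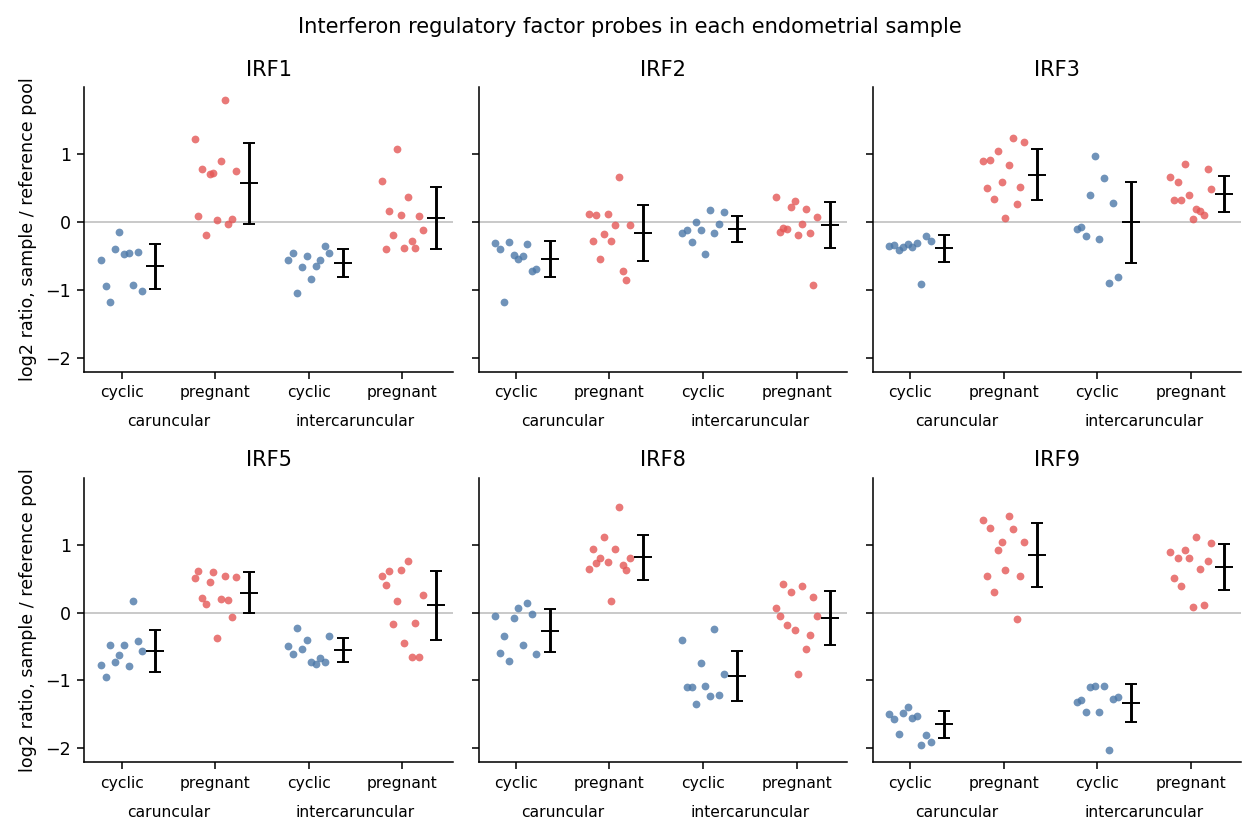
Log2 ratio of sample over reference pool for the 6 factors past the filter, by tissue and state, with 1 point per cow (blue cyclic, red pregnant), and the group mean with its SD beside the points. For IRF9 the pregnant cows lie between -0.09 and 1.42 in caruncular tissue, apart from the cyclic cows at -1.94 to -1.39, while for IRF2 the groups overlap in both tissues.

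Of the 6 factors past the filter, 5 passed the threshold in caruncular tissue, where 10% of all probes tested did (1473 of 14717, with 1386 by the methods' t-test after adjustment). In intercaruncular tissue 4 of 6 passed it, against 7.28% of all probes (1071 of 14715, with 997 by the t-test). All of these were increases, and the 5 factors of the first tissue were IRF9, IRF1, IRF3, IRF8 and IRF5, with IRF3 the one that did not pass in the other. Slides of 4 arrays mostly held cows of 1 state. Within the slide of each tissue that held 3 pregnant and 1 cyclic cow, IRF9 was 2.18 higher in pregnant cows in caruncular and 2.10 higher in intercaruncular tissue. With each slide fitted as a block, IRF9 and IRF3 (1.07, adjusted p = 0.0371) passed in caruncular tissue and IRF9 alone in the other, with 228 and 128 of all 14717 probes.

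**Figure D2:**
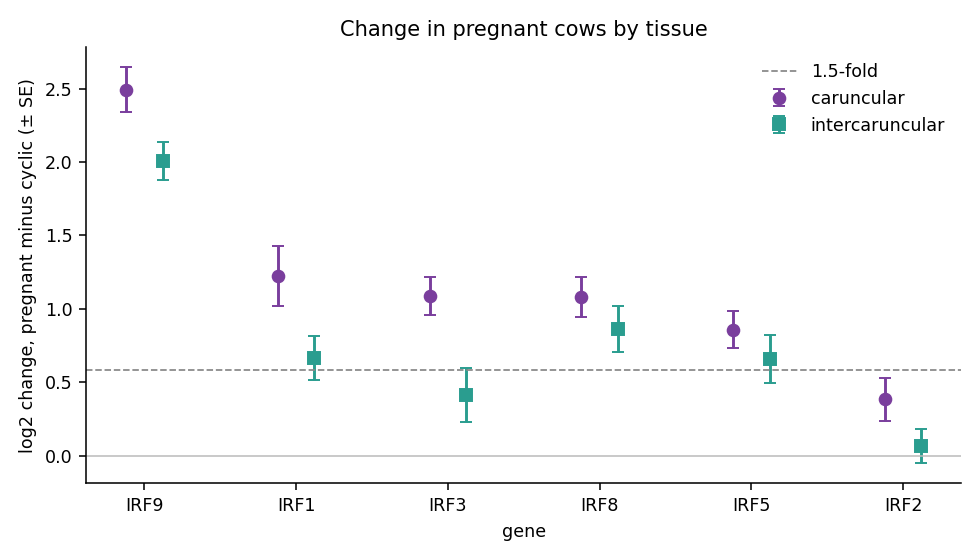
Change in pregnant against cyclic cows on the log2 scale, with bars of 1 SE, for the 6 factors in caruncular (circles) and intercaruncular tissue (squares), and a dashed line at 1.5-fold. IRF9 stands at 2.49 and 2.00, and IRF2 lies under the line in both tissues.

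STAT2, a partner of IRF9 in ISGF3, was too dim to be tested. Its 2 probes were well above background on 0 of 13 caruncular arrays of cyclic cows, against 7 and 8 of 13 of pregnant cows. In intercaruncular tissue they were so on 0 and 1 of 10 arrays of cyclic and 2 and 5 of 12 of pregnant cows. Upstream of ISGF3, no kinase or receptor gene named here passed the threshold. JAK1, a kinase bound to the receptor, had changes of -0.10 (SE 0.08, adjusted p = 0.411) and -0.19 (SE 0.08, adjusted p = 0.109). For the kinase TYK2, 1 probe gave -0.38 (adjusted p = 0.000219) and -0.30 (adjusted p = 0.00331), under 1.5-fold, and the other 0.09 and 0.02. JAK2, which serves the interferon gamma receptor, had changes of 0.38 (adjusted p = 0.0124) and 0.17 (adjusted p = 0.107). The receptor chain IFNAR1 had -0.26 in both tissues (adjusted p = 0.456 and 0.499).

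Of 18 ISGF3 target genes listed, 13 passed the filter, which a gene can pass through the pregnant cows alone. In cyclic cows 12 of these were well above background on most arrays, and these 12 rose in both tissues. Their changes ran from 1.81 to 5.46 in caruncular tissue, with a median of 3.37, and from 1.33 to 3.65 in intercaruncular tissue, with a median of 2.6. Over all probes tested the medians were -0.04 and -0.01, and 10% and 7.28% of them rose or fell past the threshold. RSAD2, which makes an antiviral nucleotide, rose by 5.46 and 3.65, and the dynamin-like GTPase MX2 by 4.90 and 2.90. IFIT3, a protein that helps bind viral RNA, rose by 4.57 (SE 0.34) and 3.56 (SE 0.35). IFIT2, of the same family and the last of the 13, passed the threshold too, but was well above background on only 5 of 13 caruncular and 4 of 10 intercaruncular arrays of cyclic cows, so the size of its change is uncertain. OAS1 did not pass the filter, since its brighter probe was well above background on 12 of 13 caruncular arrays of pregnant cows but 2 of 13 of cyclic cows. No probe was matched to IFIT1, IFI6, IFI27 or BST2. Within the slides that held both states, the median of the 13 genes, IFIT2 included, was 3.50 and 4.12 higher in pregnant cows in caruncular and 2.53 higher in intercaruncular tissue, and each of the 13 was higher in all 3 slides.

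**Figure D3:**
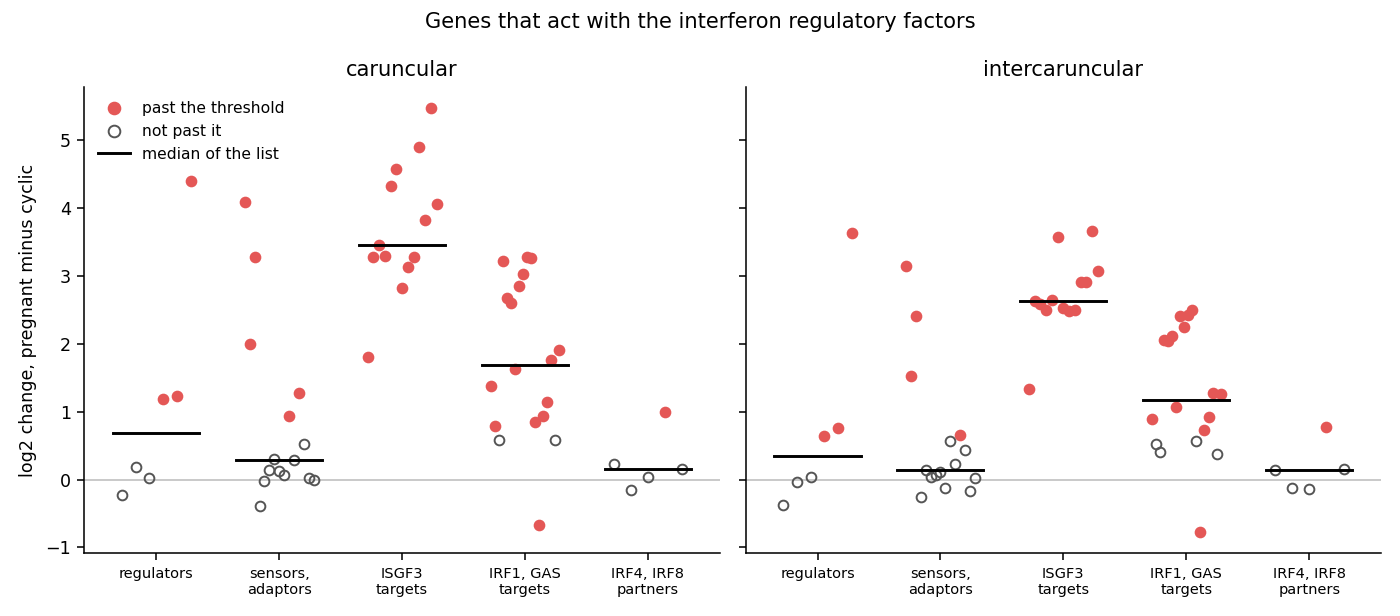
Change in pregnant against cyclic cows on the log2 scale for the genes of 5 lists that passed the filter, in each tissue, with 1 point per gene, filled where it passed the threshold, and a line at the median of the list. The 13 ISGF3 targets all lie at 1.33 or above, while 4 of 5 lineage partners of IRF4 and IRF8 lie between -0.15 and 0.23, with SPI1 at 0.99 and 0.77.

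IRF1, an activator that interferon induces through DNA elements called GAS, rose in both tissues. In caruncular tissue its lowest, median and highest values were -1.17, -0.52 and -0.14 in cyclic and -0.20, 0.72 and 1.79 in pregnant cows. The groups touched at 1 cow, since 11 of 12 pregnant cows were above every cyclic cow and cow P3807, sub-fertile with a small embryo, was not. In intercaruncular tissue the values were -1.04, -0.56 and -0.35 in cyclic and -0.39, -0.02 and 1.08 in pregnant cows. There 3 of the 12 pregnant cows were within the cyclic range. IRF1 rose by 1.22 (SE 0.20, 2.33-fold, adjusted p = 0.00015) in caruncular and by 0.66 (SE 0.15, 1.58-fold, adjusted p = 0.00358) in intercaruncular tissue. The latter is close to the fold required, and without the pregnant cow P3956, the highest at 1.08, it was 0.57 and under it. Once slides were fitted as blocks, the change in caruncular tissue was 1.13 (adjusted p = 0.162). Within the slides that held both states, pregnant cows were higher by 0.69 and 1.63 in caruncular and by 0.60 in intercaruncular tissue. The last is also the block fit there, since that slide alone held both states, with 1 cyclic cow.

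IRF2, which competes with IRF1 at its DNA element, did not pass the threshold in either tissue. Its lowest, median and highest values in caruncular tissue were -1.19, -0.50 and -0.30 in cyclic and -0.85, -0.11 and 0.66 in pregnant cows. In intercaruncular tissue they were -0.48, -0.12 and 0.17 in cyclic and -0.92, -0.06 and 0.36 in pregnant cows. The groups overlapped in both, and 9 of 12 pregnant cows in the former and 4 of 12 in the latter were above every cyclic cow. The change was 0.38 (SE 0.15, 1.3-fold, adjusted p = 0.0571) in caruncular and 0.065 (SE 0.12, adjusted p = 0.739) in intercaruncular tissue. Of the co-repressors that bind IRF2, IRF2BP1 had changes of -0.23 (adjusted p = 0.179) and -0.38 (adjusted p = 0.0536), and IRF2BP2 0.18 (adjusted p = 0.159) and -0.03 (adjusted p = 0.837). Neither passed the threshold.

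Those co-repressors belong to a list of 8 regulators of the family and its pathway, of which 6 passed the filter and 3 rose in each tissue, against 10% of all probes passing in caruncular and 7.28% in intercaruncular tissue. The medians were 0.68 and 0.34. USP18, which takes ISG15 off proteins and dampens signalling at the receptor, rose by 4.4 (SE 0.29) and 3.62 (SE 0.22). TRIM21, a ubiquitin ligase that acts on several IRFs, rose by 1.23 (SE 0.13) and 0.75 (SE 0.12). SOCS1, an inhibitor of the JAK kinases, rose by 1.19 (SE 0.28) and 0.64 (SE 0.17). The other 3 of the 6 did not pass the threshold in either tissue. In a fit with slides as blocks, 2 of the 6 passed in caruncular and 1 in intercaruncular tissue.

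All 18 genes listed as targets of IRF1 or of GAS elements passed the filter, of which 15 rose and 1 fell in caruncular and 13 rose and 1 fell in intercaruncular tissue, where 10% and 7.28% of all probes passed. The medians were 1.69 and 1.17. GBP4 and GBP2, guanylate-binding proteins of cell-autonomous defence, rose by 3.28 (SE 0.33) and 3.03 (SE 0.45) in caruncular and by 2.42 and 2.25 in intercaruncular tissue. IDO1, which degrades tryptophan, rose by 3.27 and 2.5, and CXCL10, a chemokine that draws T and NK cells, by 3.21 (SE 0.50) and 2.06 (SE 0.43). NOS2, the inducible nitric oxide synthase, was the exception and fell by 0.66 (SE 0.12, adjusted p = 0.000262) and by 0.77 (SE 0.15, adjusted p = 0.00114). With a block for each slide, 5 and 2 of the 18 passed the threshold, against 12 and 10 of the 12 ISGF3 targets other than IFIT2 and 228 and 128 of all 14717 probes. Within the slides that held both states, 17 of the 18 were higher in pregnant cows on each, with medians of 1.30 and 1.93 in caruncular and 1.40 in intercaruncular tissue.

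IRF3, the factor that starts interferon transcription once RNA sensors signal through the kinase TBK1, rose in caruncular tissue. There its lowest, median and highest values were -0.92, -0.35 and -0.21 in cyclic and 0.05, 0.71 and 1.24 in pregnant cows, and the groups did not overlap. In intercaruncular tissue they were -0.90, -0.09 and 0.98 in cyclic and 0.04, 0.36 and 0.85 in pregnant cows. No pregnant cow was above the highest cyclic cow there. In caruncular tissue 9 of the 10 cyclic cows lay between -0.42 and -0.21, whereas in intercaruncular tissue 2 lay at -0.90 and -0.81 and 2 at 0.65 and 0.98. The latter 2 shared a slide with cows C2970 (0.40) and C9813 (0.28), and every cyclic cow on another slide lay below the pool. Whether the slide or the animals set these cows apart was not tested. The change was 1.09 (SE 0.13, 2.13-fold, adjusted p = 2.03e-06) in caruncular and 0.41 (SE 0.18, 1.33-fold, adjusted p = 0.111) in intercaruncular tissue. Within the slides that held both states, it was higher in pregnant cows by 1.05 and 1.10 in caruncular and by 0.63 in intercaruncular tissue.

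IRF5, which Toll-like receptors activate in myeloid cells, rose in both tissues. Its lowest, median and highest values in caruncular tissue were -0.96, -0.60 and 0.17 in cyclic and -0.37, 0.33 and 0.62 in pregnant cows. In intercaruncular tissue they were -0.76, -0.57 and -0.23 in cyclic and -0.65, 0.22 and 0.75 in pregnant cows. In each tissue 9 of 12 pregnant cows were above every cyclic cow. In caruncular tissue the overlap came from 1 cyclic cow, C9786 at 0.17, since the next cyclic cow was at -0.41, below every pregnant cow. The change was 0.86 (SE 0.13, 1.81-fold, adjusted p = 4.2e-05) in caruncular and 0.66 (SE 0.16, 1.58-fold, adjusted p = 0.00662) in intercaruncular tissue. Under a block for each slide it was 0.77 (adjusted p = 0.118) in caruncular tissue. In intercaruncular tissue it was 0.89, the difference on the only slide with both states, which held 1 cyclic cow. With small-embryo cows only, the intercaruncular change was 0.30 and did not pass.

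Of 18 sensors and adaptors that lead to IRF3, IRF5 and IRF7, 15 passed the filter, and 5 rose in caruncular and 4 in intercaruncular tissue, with none that fell, where 10% and 7.28% of all probes passed. With slides fixed as blocks, 4 passed in each tissue. Their median changes were 0.28 and 0.14. Those that rose are sensors of RNA, and the adaptors and kinases that carry their signal did not pass the threshold by their brightest probe, although a dimmer probe of the adaptor MYD88 rose by 0.63 (SE 0.16, adjusted p = 0.00557) in caruncular tissue. DDX58, a sensor of viral RNA ends, rose by 4.08 (SE 0.24) and 3.14 (SE 0.19). IFIH1, which senses long double-stranded RNA, rose by 3.27 (SE 0.21) and 2.40 (SE 0.23), and their relative DHX58 by 1.99 and 1.53. TLR7, an endosomal receptor for single-stranded RNA that acts through IRF5 and IRF7, rose by 1.27 (SE 0.15, adjusted p = 1.66e-06) and 0.66 (SE 0.13, adjusted p = 0.00124). TLR3 rose by 0.93 (SE 0.16) in caruncular tissue, and its 0.57 (SE 0.12, adjusted p = 0.00163) in the other was under 1.5-fold, but the 2 changes did not differ past the threshold (adjusted p = 0.764). TBK1, the kinase that phosphorylates IRF3, had changes of 0.13 (adjusted p = 0.0782) and 0.12 (adjusted p = 0.377).

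IRF8, which with the factor SPI1 (PU.1) directs the making of macrophages and dendritic cells, rose in both tissues. Its lowest, median and highest values in caruncular tissue were -0.71, -0.21 and 0.14 in cyclic and 0.17, 0.77 and 1.55 in pregnant cows, which did not overlap. In intercaruncular tissue they were -1.35, -1.08 and -0.25 in cyclic and -0.90, -0.05 and 0.43 in pregnant cows. There 8 of 12 pregnant cows were above every cyclic cow, and cow P9246 was the lowest pregnant cow in both tissues. The change was 1.08 (SE 0.13, 2.11-fold, adjusted p = 3.89e-06) in caruncular and 0.86 (SE 0.16, 1.82-fold, adjusted p = 0.000643) in intercaruncular tissue. Once slides were fitted as blocks, it was 1.07 (adjusted p = 0.0504) in caruncular tissue. In intercaruncular tissue it was 0.98, the difference on the only slide with both states, which held 1 cyclic cow. With small-embryo cows only, the intercaruncular change was 0.61 and did not pass.

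IRF4, which acts in lymphocytes, was near background by the 1 probe taken as its own. Another probe, described as similar to IRF4, passed the filter but did not meet the rule on names and was not used, so whether IRF4 itself is low was not tested. The IRF4 probe was well above background on 19 of 48 arrays and met the filter in 6 of 44 samples, with a median signal of 26.7 units. By group it was so on 2 of 13 caruncular arrays of cyclic and 6 of 13 of pregnant cows, and on 2 of 10 and 9 of 12 intercaruncular arrays. Its lowest, median and highest values were -1.80, -1.30 and 1.29 in caruncular cyclic and -1.68, -0.54 and 1.67 in caruncular pregnant samples. In intercaruncular tissue they were -1.06, -0.26 and 1.76 in cyclic and -1.18, -0.68 and 2.25 in pregnant cows. The groups overlapped over most of their range, and IRF4 was not tested. The highest values belonged to cow P977 in pregnant (1.67 and 2.25) and cow C1940 in cyclic cows (1.29 and 1.76), each high in both of its tissues.

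Among 8 lineage partners of IRF4 and IRF8, 5 passed the filter, with a median change of 0.16 in caruncular and 0.15 in intercaruncular tissue, and SPI1 alone passed the threshold, as did 10% and 7.28% of all probes. SPI1 rose by 0.99 (SE 0.16, adjusted p = 0.000138) and 0.77 (SE 0.18, adjusted p = 0.00489). With slides fixed as blocks, 0 of the 5 passed in either tissue, and the largest change among them was 0.93 in each tissue. CEBPA, another myeloid factor, had changes of 0.23 and 0.15, and XBP1 of plasma cells 0.16 and 0.16. IKZF3, a lymphoid factor, had -0.15 and -0.12. No probe was matched to BATF3, a partner of IRF8 in dendritic cells.

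The cells in which these factors are known were looked at through marker genes, described by counts and medians. Of 7 macrophage and monocyte markers past the filter, 4 rose in each tissue, and the 7 had medians of 0.83 in caruncular and 0.61 in intercaruncular tissue. The mean of these 7 went from -0.67 in cyclic to 0.20 in pregnant cows in caruncular and from -0.64 to 0.10 in intercaruncular tissue. Of 4 dendritic cell markers 1 rose in each tissue, CLEC9A of the lineage that needs IRF8, by 1.18 (SE 0.20) and 0.85 (SE 0.22), and the medians were 0.55 and 0.27. Of 5 NK cell markers 3 rose in caruncular and 1 in intercaruncular tissue, with medians of 0.71 and 0.44. Of 4 markers of all leukocytes 1 rose in each, with medians of 0.49 and 0.31. None of 5 T cell markers passed the threshold, with medians of 0.18 and 0.20, nor did any of 5 markers of B and plasma cells, with medians of -0.04 and -0.32. Of 7 epithelial markers 1 rose and 1 fell in caruncular tissue and 1 rose in intercaruncular tissue, with medians of -0.36 and 0.03. Of 6 stromal markers 1 fell in caruncular and 2 in intercaruncular tissue, with medians of -0.28 and -0.38. Over all probes 10% passed in caruncular and 7.28% in intercaruncular tissue, and with the slide as a random block 4 and 2 of the macrophage, 1 and 0 of the dendritic cell and 3 and 0 of the NK cell markers did. With slides fixed as blocks, 1 NK cell marker and 1 of all leukocytes passed in caruncular tissue and no macrophage or dendritic cell marker in either, with macrophage medians of 0.51 and 0.41 and dendritic cell medians of 0.30 and 0.49. The other medians then were 0.76 and 0.87 for NK cells, 0.23 and 0.05 for all leukocytes, and -0.18 and -0.21 for T cells. They were 0.01 and -0.10 for B and plasma cells, -0.27 and -0.27 for epithelium, and -0.41 and -0.61 for stroma. Whether IRF5, IRF8 and SPI1 rose through more myeloid cells or through more RNA in each was not tested.

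The change in pregnancy was then compared between the tissues. None of the 6 factors passed an adjusted p under 0.05 for this difference, as tested by limma without pairing of the tissues within a cow. Over all probes 0.0204% did (3 of 14717), and 1085 had an unadjusted p under 0.05. The change was larger in caruncular tissue for each of the 6, by 0.67 for IRF3 (SE 0.23, adjusted p = 0.416), 0.56 for IRF1 (SE 0.26, adjusted p = 0.628) and 0.49 for IRF9 (SE 0.20, adjusted p = 0.559). It was larger by 0.32 for IRF2, 0.22 for IRF8 and 0.20 for IRF5. With the cow as a fixed block that pairs its 2 tissues, 151 probes passed, IRF9 among them (adjusted p = 0.0374) and IRF3 not (adjusted p = 0.0605), and with the cow as a random block 426 passed, among them IRF3 (adjusted p = 0.0248) and IRF9 (adjusted p = 0.0383). With the slide as a block, random or fixed, 0 probes passed, and with it fixed the difference was 0.04 for IRF3 and 0.21 for IRF9.

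Between the tissues themselves, IRF8 was the only factor past the threshold, and it was higher in caruncular tissue in cyclic and in pregnant cows. Within cows, caruncular less intercaruncular tissue had a lowest, median and highest value of 0.30, 0.65 and 1.18 in cyclic and 0.30, 0.92 and 2.09 in pregnant cows, so that it was positive in all 22. The difference was 0.67 (SE 0.15, adjusted p = 0.00183) in cyclic and 0.89 (SE 0.14, adjusted p = 2.8e-05) in pregnant cows. This is 1 of 6 factors in each, against 11.9% of all probes in cyclic (1752 of 14715) and 17.0% in pregnant cows (2499). IRF2 was lower in caruncular tissue in all 10 cyclic cows, by 0.44 (SE 0.11, adjusted p = 0.00344), which is under 1.5-fold. The tissues were almost wholly on different slides. In the 2 cows with both tissues on 1 slide, IRF8 was higher in caruncular tissue by 0.41 in pregnant cow P9790 and by 0.39 in cyclic cow C9786. In a fit with slides as blocks, the difference for IRF8 was 0.12 in cyclic and 0.57 in pregnant cows. Each value comes from 1 slide with 1 intercaruncular array, against 3 caruncular arrays in cyclic and 2 in pregnant cows. Repeat arrays of other cows are among these, and the cow was not paired. Tissue and slide therefore cannot be told apart.

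**Figure D4:**
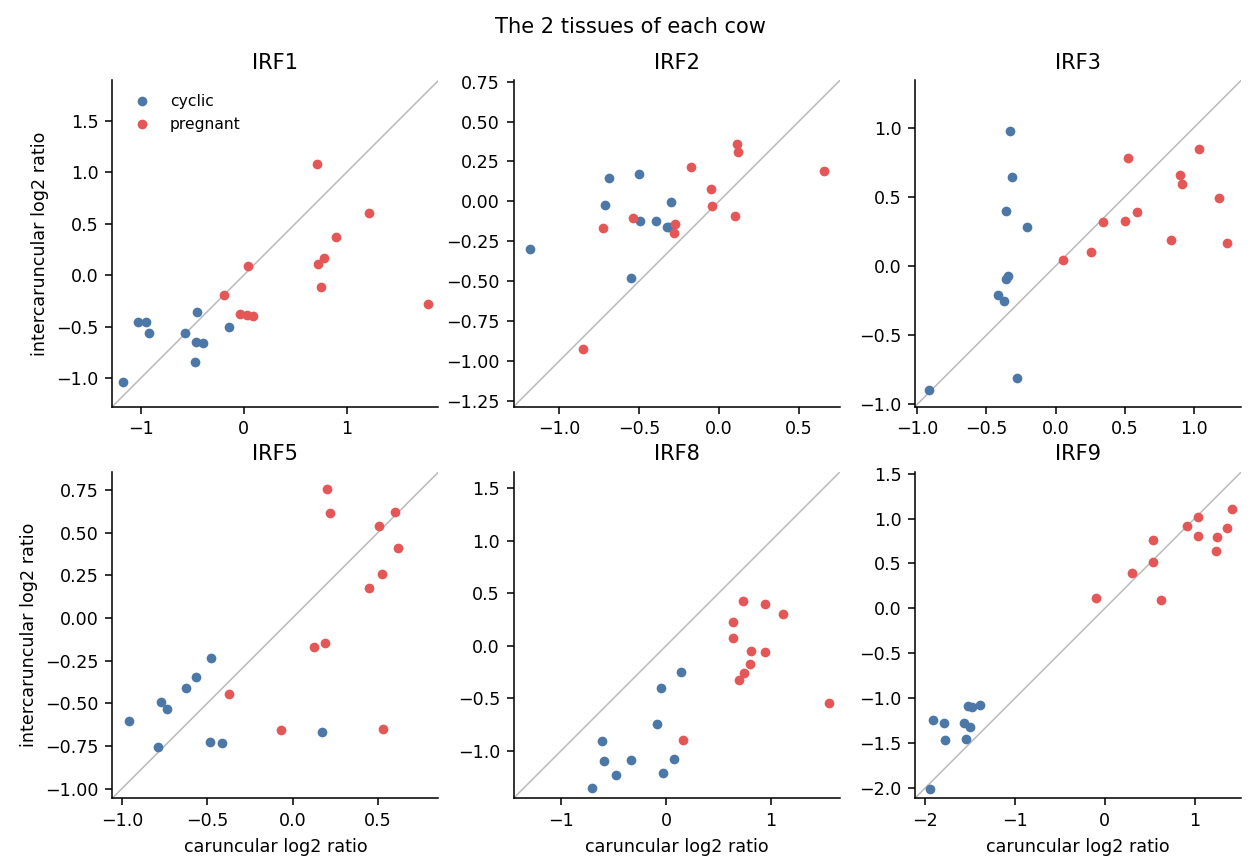
Log2 ratio in caruncular (across) against intercaruncular tissue (up) for each cow, blue cyclic and red pregnant, with the line of equality and axes that differ between panels. For IRF8 all 22 cows lie below the line, with a median within-cow difference of 0.65 in cyclic and 0.92 in pregnant cows.

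Across pregnant cows, the level of a factor in 1 tissue was compared with that in the other by Pearson correlation, tested by permutation of cows with adjustment over 14 relations. The correlation was 0.78 for IRF9 (adjusted p = 0.0162) and 0.74 for IRF2 (adjusted p = 0.0214). Without the 2 cows farthest from the centre these were 0.62 and 0.64. IRF4, near background in most samples, is 2 of the 14 and is not described. For IRF1 it was 0.37 (adjusted p = 0.341) and for IRF8 0.20 (adjusted p = 0.621), and without the 2 farthest cows of each these were 0.70 and 0.29. IRF3 had 0.43 (adjusted p = 0.259) and IRF5 0.49 (adjusted p = 0.204), and without their 2 farthest cows 0.53 and 0.07. Cow P932 had the highest caruncular IRF1 at 1.79 and an intercaruncular value of -0.28. In cyclic cows none of the 6 factors past the filter passed. With slide means removed, which leaves 11 pregnant cows, none of the 14 passed, and the correlation was 0.85 for IRF9 and 0.71 for IRF2.

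By embryo size, no factor passed an adjusted p under 0.05 by limma without blocks in either tissue. In caruncular tissue 0 of 14717 probes did (0.00%), with 1020 at an unadjusted p under 0.05 and 855 by the methods' t-test without adjustment. In intercaruncular tissue 3.70% did (545 probes), and 0 of the 6 factors, but the count ran from 34 without cow P932 to 1878 without cow P9790. The closest were IRF9 and IRF5 there. IRF9 had a lowest, median and highest value of 0.51, 0.81 and 1.11 with large embryos, and 0.09, 0.40 and 0.92 with small embryos, which overlapped. The difference was 0.41 (SE 0.15, adjusted p = 0.141), and without cow P3956 it was 0.53, with an adjusted p just under 0.05. IRF5 had -0.65, 0.54 and 0.75 with large and -0.65, -0.17 and 0.18 with small embryos, and 6 of 7 cows with a large embryo were above every cow with a small embryo. The exception was cow P9790, and the difference of 0.61 (SE 0.23, adjusted p = 0.142) became 0.78 (adjusted p = 0.0079) without it. With slides fixed as blocks, which was chosen after seeing the data, IRF5 passed at 0.67 (adjusted p = 0.0264) and 1088 probes did. IRF8 differed by 0.44 (SE 0.19, adjusted p = 0.202). Marker medians by embryo size in this tissue were 0.56 for macrophages, 0.50 for NK cells, 0.20 for dendritic cells and 0.10 for T cells. None of these markers passed, and cow P9790 had a macrophage marker mean of -0.53, against 0.10 over all pregnant cows. Whether IRF5 and IRF8 differed with the number of myeloid cells was not tested.

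By fertility label, no factor passed an adjusted p under 0.05 either. In caruncular tissue 0 of 14717 probes did (0.00%), with 2026 at an unadjusted p under 0.05 and 1865 by the methods' t-test without adjustment, and in intercaruncular tissue 0.0476% did (7 probes). Caruncular IRF1 had a lowest, median and highest value of 0.03, 0.81 and 1.79 in fertile and -0.20, 0.06 and 0.78 in sub-fertile cows. Of the 6 fertile cows, 3 were above every sub-fertile cow. The difference was 0.66 (SE 0.27, adjusted p = 0.325). Caruncular IRF9 had 0.62, 1.14 and 1.42 in fertile and -0.09, 0.54 and 1.25 in sub-fertile cows, and differed by 0.50 (SE 0.22, adjusted p = 0.336). Caruncular IRF2 differed by 0.46 (SE 0.19, adjusted p = 0.331), and all 6 fertile cows were above the mean of the sub-fertile cows. Intercaruncular IRF2 differed by 0.37 (SE 0.16, adjusted p = 0.343), with 4 of the 6 fertile cows above every sub-fertile cow. With slides fixed as blocks, this intercaruncular difference was 0.13, which is that of the only slide with both labels, holding 2 fertile and 2 sub-fertile cows. By both labels, mean caruncular IRF9 was 1.27 in large fertile, 0.84 in large sub-fertile, 0.93 in small fertile and 0.10 in small sub-fertile cows, the last being 2 cows.

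**Figure D5:**
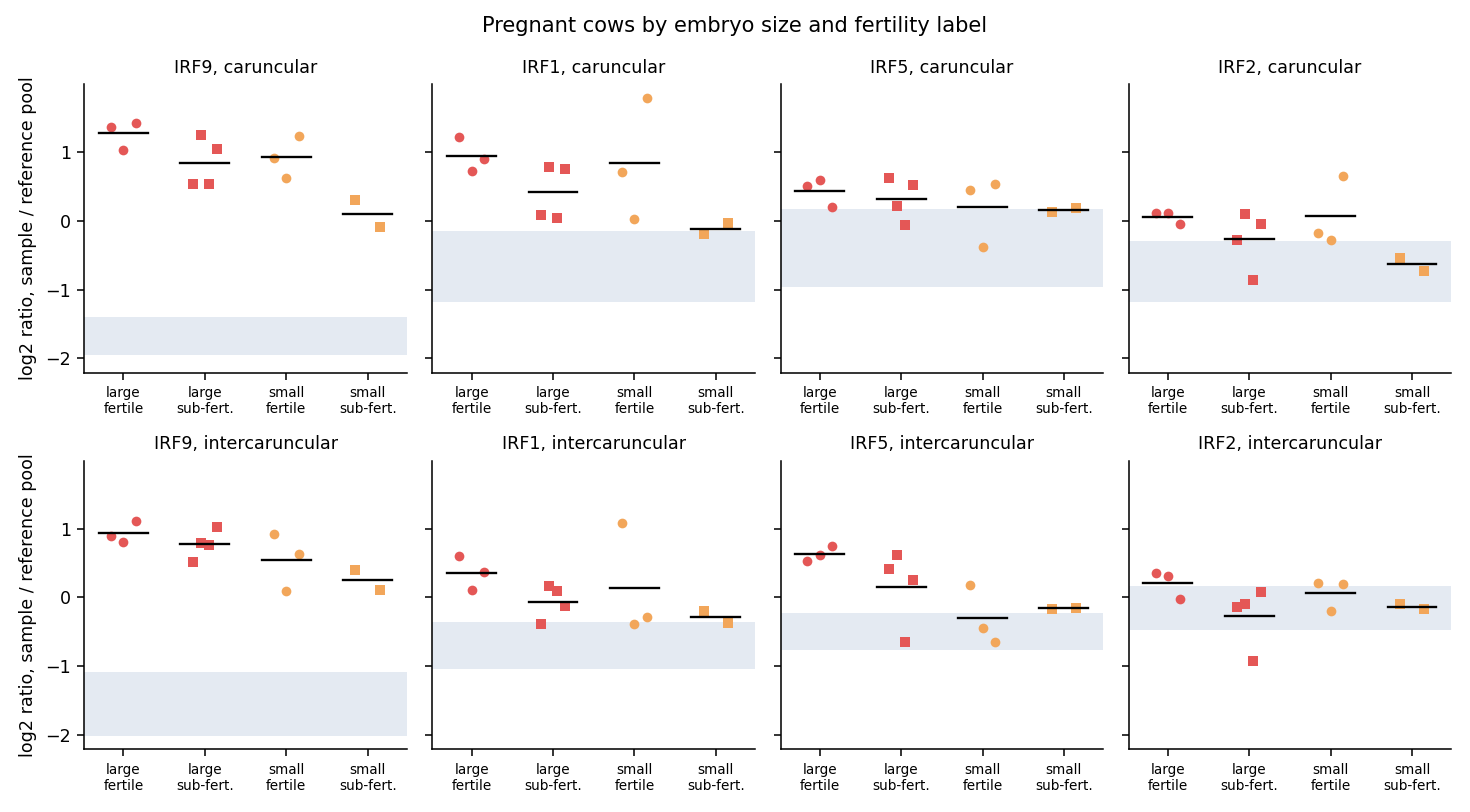
Log2 ratio in pregnant cows for IRF9, IRF1, IRF5 and IRF2 by embryo size (red large, orange small) and fertility label (circles fertile, squares sub-fertile), with a bar at the mean and a shaded band over the range of cyclic cows. Caruncular IRF9 has means from 1.27 in large fertile to 0.10 in small sub-fertile cows, all above the cyclic range.

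To see which genes varied with each factor beyond tissue and state, the mean of each tissue and state was removed and correlations were taken over 44 samples. The 3 probes closest to IRF9 were those of DDX58 (0.91), PARP12 (0.91) and USP18 (0.89), all genes that interferon turns on. Closest to IRF1 were CXCL10 (0.86), TMEM140 (0.84) and RNF114 (0.82). Closest to IRF5 were PSCD4 (0.88), CLECL1 (0.83) and TFEC (0.83), which are known from leukocytes. Closest to IRF3 were KCTD2, TRPM4 and LGALS9 (each 0.82), to IRF2 ZCCHC8 (0.83), ACADM (0.80) and RAB11FIP3 (0.80), and to IRF8 CENPI (0.71) and TICAM2 (0.69). Among the factors the closest pair was IRF1 with IRF9 (0.71), then IRF1 with IRF2 (0.64) and IRF3 with IRF9 (0.63), while IRF5 and IRF8 were closest to each other (0.51). These correlations were not tested and samples of 1 cow are not independent.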

How the data were processed

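The 48 scanner files cover 44 samples of 22 cows on 12 slides of 4 arrays. The deposited files give the mean and background intensity of each dye, without a log, and, per the file headers, a log10 ratio of Cy5 over Cy3 after background subtraction and LOWESS dye normalization by the scanner software. The deposited matrix holds log2 ratios, which served as an alternative. Of its 48 columns, 40 equalled the log2 of the ratio of the dye-normalized signals to within 1e-05. The other 8 differed in 75 to 428 values each, by at most 0.0145 in 1 column and at most 1.3311 in another.

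The log10 ratio was turned into log2, spots marked as outliers by the scanner software were dropped, the 2 spots of a probe were averaged and the array median was subtracted. Samples run on 2 arrays were averaged. Of 21475 probes, 14717 passed the filter. Groups were compared with limma 3.58.1 in R 4.3.3 (tables in Python 3.11.15), and the code was tested on simulated data. The threshold for pregnancy and tissue was 1.5-fold with an adjusted p under 0.05, and for the difference between tissues, embryo size and fertility label an adjusted p under 0.05 alone. On caruncular arrays of cyclic cows a median of 71.7% of probes were well above background.

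Each cow gave both tissues, so the samples are paired by animal. The deviations of a cow's 2 samples from their group means had correlations of 0.111 to 0.871, with a median of 0.62, and 21 of 22 cows correlated best with themselves. Agreement between tissues was tested with 100000 permutations.

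The members and lists were chosen with earlier results of these data known. Named are every probe of a factor, up to 4 genes of each list with the largest caruncular change, the direct partners of the factors, and up to 3 genes closest to each factor, some of which are not used here. RNF31, OAS1, NOS2, TLR3 and MYD88 fall outside this rule and were chosen after their values were seen, as were genes named because a count was 5 or fewer. Of several probes for a gene the brightest past the filter was counted. Alternatives were other background correction, filters, tests, blocks and sets of cows. The slide and the scan batch as fixed blocks in comparisons other than pregnancy, slide means removed from the agreement of tissues, and lists without genes near background in cyclic cows, were chosen after seeing the data. Markers of the conceptus were used as a check, and are given under the other observations.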

Additional observations from a re-analysis of the deposited data

Results flagged for a closer look

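In 70 groups of 5 to 10 samples, the highest or lowest sample of a factor was compared with its nearest neighbour, and 9 were far from the others by Dixon's criterion, where chance gives about 1 in 20 groups. IRF1 in cow P3956 was 1.0804, the highest of 5 intercaruncular samples with small embryos. IRF2 in cow C2952 was -1.1851, the lowest of 10 caruncular cyclic samples. Cow P9790 had the lowest IRF2 of the samples with large embryos, at -0.8525 in caruncular and -0.9219 in intercaruncular tissue, and the latter was also the lowest of the sub-fertile cows. Its intercaruncular IRF5 was -0.654, the lowest with large embryos. Cow C9786 had a caruncular IRF3 of -0.9168, the lowest of the cyclic cows, a caruncular IRF5 of 0.1714, the highest, and an intercaruncular IRF9 of -2.0164, the lowest. Cows P9790 and C9786 are those whose tissues shared a slide scanned with the repeat arrays, and whether the slide or the animal set them apart was not tested.

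A difference of the change in pregnancy between the tissues passed an adjusted p under 0.05 for MX2, at 1.9935 (adjusted p = 0.0157). Blocked by cow, it passed for USP18 at 0.7766 (adjusted p = 0.0364), RSAD2 at 1.806 (adjusted p = 0.00516), IFIT2 at 1.675 (adjusted p = 0.0361), whose size is uncertain since IFIT2 was near background on most arrays of cyclic cows, and DDX58 at 0.9469 (adjusted p = 0.00348). It also passed for IRF9 at 0.4887 (adjusted p = 0.0374), GBP4 at 0.8597 (adjusted p = 0.0452) and TLR7 at 0.6188 (adjusted p = 0.00516). With the cow as a random block TRIM21 at 0.4812 (adjusted p = 0.0294), IFIH1 at 0.8686 (adjusted p = 0.0356) and IRF3 at 0.6741 (adjusted p = 0.0248) passed as well. All of these were larger in caruncular tissue, whereas over all probes that passed 97 differences were positive and 54 negative with the cow as a fixed block, and 215 and 211 with it random. With the slide as a block 0 probes passed.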

How the results depend on the processing

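Over all settings, 1180 changes of the factors kept their direction and side of the threshold, 35 turned, 8 came to pass and 13 ceased to pass. Factors past the threshold were the same number in 192 of 206 settings, and counts of probes stayed within 1.5 times in 157 of 206. Leaving out 1 cow at a time, IRF9 ran from 2.44 to 2.58 in caruncular and from 1.93 to 2.06 in intercaruncular tissue. The limits are the number of cows, slides that mostly hold 1 state and 1 tissue, and probes near background such as IRF4. The cause of the differences below was not tested.

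For pregnancy in caruncular tissue, 228 probes and 2 factors passed with slides fixed as blocks, and 519 probes with small-embryo cows only. In intercaruncular tissue 656 probes passed with the slide as a random block, and 128 probes and 1 factor with it fixed. With large-embryo cows only 1674 probes passed, and with small-embryo cows only 241 probes and 1 factor. That last factor was IRF9, while IRF1 (0.58), IRF5 (0.30) and IRF8 (0.61) did not pass with small-embryo cows only.

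For the difference between tissues in the change of pregnancy, 11 probes passed with no filter, 6 with the repeat array only, 0 with the slide as a random or fixed block and 57 with the scan batch fixed. With cows as fixed replicate blocks 151 probes and 1 factor passed, and with cows as random blocks 426 probes and 2 factors. Pairing changed no other call of a factor.

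Between tissues in cyclic cows, 851 probes passed with the slide as a random block, and 0 probes and 0 factors with the slide or the scan batch fixed. With the slide fixed and with the scan batch fixed, IRF3 turned to 0.4191 and 0.4374, IRF5 to 0.2905 and 0.2421 (0.1372 with the slide random) and IRF9 to 0.1844 and 0.1333, and with the scan batch fixed IRF8 turned to -0.0048. In either state, a fit with the slide or the scan batch fixed rests on 1 intercaruncular array. In pregnant cows 0 probes and 0 factors passed with either fixed, and with each of these IRF2 turned to 0.47 and IRF3 to -0.0906.

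For embryo size in caruncular tissue, 855 probes passed by the methods' t-test unadjusted. With a cow left out IRF2 ran from -0.0424 to 0.304 and IRF8 from -0.2652 to 0.0821. In intercaruncular tissue 319 probes passed with no filter, 190 by the t-test adjusted, 3092 by it unadjusted, 878 with the slide as a random block, 1088 with it fixed, 1878 with the scan batch fixed, and from 34 to 1878 with a cow left out. There IRF5 was the 1 factor that passed by the t-test unadjusted, with the slide fixed (0.671) and with the scan batch fixed (0.7794), and 0 to 1 factors passed with a cow left out. Cow P9790 gave the only intercaruncular sample of a pregnant cow outside the main scan batch. Fixing the scan batch is therefore the same fit as leaving out that cow, and not a separate result. IRF1 turned to -0.0895 with the slide fixed. IRF2 turned to 0.0093 with the slide fixed, 0.0937 with the scan batch fixed, 0.0136 with fertility as a covariate, and ran from -0.1202 to 0.0937 with a cow left out.

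For fertility in caruncular tissue, 1865 probes passed by the t-test unadjusted and 0 to 2 with a cow left out. IRF5 turned to -0.0159 with the slide fixed. With a cow left out IRF5 ran from -0.016 to 0.1893 and IRF8 from -0.0492 to 0.2286. In intercaruncular tissue 4 probes passed with no filter, 0 by the t-test adjusted, 1808 by it unadjusted, 3 with the slide as a random block, 0 with it fixed, 43 with the scan batch fixed and 3 to 43 with a cow left out. With the slide fixed IRF1 turned to -0.2264, IRF5 to -0.7797 and IRF9 to -0.0924. These are the differences on the only slide that held both labels, with 2 fertile and 2 sub-fertile cows. IRF3 turned to 0.0169 with the scan batch fixed, and ran from -0.1456 to 0.0169 with a cow left out. Here too, fixing the scan batch is the same fit as leaving out cow P9790. IRF5 turned to -0.0621 with the slide as a random block, and -0.0273 with the scan batch fixed, and ran from -0.0273 to 0.2769 with a cow left out.

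For the agreement of a cow's 2 tissues, slide means removed left 0.8541 for IRF9 and 0.708 for IRF2 in pregnant cows, and 0.7047 in pregnant and 0.8728 in cyclic cows for IRF4, whose values are mostly near background and carry no weight, none past the threshold, and turned IRF3 to -0.5873 and IRF5 to 0.4957 in cyclic cows. With the first array only, IRF9 in cyclic cows had 0.79 and passed.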

Other observations

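Of 10 conceptus genes listed, 8 had a probe and 1, PAG1, passed the filter, with a caruncular change of 0.16 (adjusted p = 0.528) and an intercaruncular change of -0.33 (adjusted p = 0.348). The probes of IFNT2, PAG11 and PRP1 were well above background on 0 of 48 arrays. On the repeat arrays, IRF9 was lower than on the first array in all 4 samples, by 0.10 to 0.25.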
